A study of Mus musculus with 2 samples.

Results

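The miRNA genes Mir21a, Mir22, Mir132 and Mir212 were chosen by name, as microRNAs with known roles in cardiac hypertrophy and fibrosis, and are 4 of the 1973 miRNA genes counted. The level of each was read in newborn mouse heart by small RNA sequencing, as the number of reads on the sense strand of the gene. The series holds 1 group of 2 samples, each the heart of a single B6NCrl pup at postnatal day 0. Pup 2 is replicate 1 and pup 3 is replicate 2. Both pups came from pregnant female 1, and other litters are not represented in the spread between them. No treatment, genotype or injured heart is in the series, so how these genes behave in a stressed heart was not measured.

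A microRNA is cut from a hairpin precursor, and the strand that is kept pairs with messenger RNAs, mainly through its seed near the 5′ end, and lowers their translation or stability. miR-21 is a broadly expressed miRNA that rises in injured hearts and is best known there from fibroblasts, where in mice it represses Spry1, an inhibitor of ERK kinase signalling. miR-22 is abundant in cardiomyocytes, and mice that lack it show a blunted hypertrophic response; the histone deacetylases Hdac4 and Sirt1 are among its described targets. miR-132 and miR-212 form a cluster. In mice they promote cardiomyocyte hypertrophy and repress Foxo3, a transcription factor that restrains growth and favours autophagy.

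The mature sequences show which of the 4 genes can act on the same messages, and are given here from RefSeq on GRCm38.p6, 5′ to 3′, with the seed (bases 2 to 8) in capitals. The miR-21c sequence is added as a mature miRNA with the miR-21a-5p seed.
mmu-miR-21a-5p: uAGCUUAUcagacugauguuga
mmu-miR-21a-3p: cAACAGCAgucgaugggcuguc
mmu-miR-22-3p: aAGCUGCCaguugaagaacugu
mmu-miR-22-5p: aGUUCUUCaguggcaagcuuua
mmu-miR-132-3p: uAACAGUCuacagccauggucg
mmu-miR-132-5p: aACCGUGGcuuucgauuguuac
mmu-miR-212-3p: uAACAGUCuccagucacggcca
mmu-miR-212-5p: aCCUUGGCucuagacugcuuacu
mmu-miR-21c: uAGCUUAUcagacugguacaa

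miR-132-3p and miR-212-3p carry 1 seed, AACAGUC. Their first 9 bases are the same, and 17 of the 22 positions match, counted from 1 at the 5′ end. The differences, with the miR-132-3p base first, are A10C, C14U, U17C, U20C and G22A, all outside the seed. The seeds of miR-21a-5p and miR-22-3p share only their first 4 bases. Among 1738 mature mouse miRNAs in the RefSeq table, miR-21a-5p shared its seed with 1 other, miR-21c, and miR-22-3p with 0 others. For miR-132-3p and miR-212-3p the only other miRNA with the seed was the cluster partner. Mir21c had 0 sense counts in both hearts, and so did Mir21b, whose hairpin shares 13 nt with that of Mir21a.

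All 4 genes lie on chromosome 11, and their hairpins are shown to place the arms that a count cannot separate. Both mature arms are in capitals, and the sequences are written 5′ to 3′ on the strand of the gene. In GRCm38, Mir21a is at chr11:86584067-86584158 on the minus strand, Mir22 at chr11:75463716-75463810, Mir132 at chr11:75173682-75173747 and Mir212 at chr11:75173388-75173478, the last 3 on the plus strand.
Mir21a hairpin: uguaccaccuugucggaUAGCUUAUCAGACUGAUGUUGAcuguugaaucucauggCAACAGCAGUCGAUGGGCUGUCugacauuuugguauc
Mir22 hairpin: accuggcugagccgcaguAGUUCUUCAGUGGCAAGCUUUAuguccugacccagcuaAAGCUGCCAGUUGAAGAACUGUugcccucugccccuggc
Mir132 hairpin: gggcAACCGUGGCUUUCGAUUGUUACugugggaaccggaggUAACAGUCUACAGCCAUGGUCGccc
Mir212 hairpin: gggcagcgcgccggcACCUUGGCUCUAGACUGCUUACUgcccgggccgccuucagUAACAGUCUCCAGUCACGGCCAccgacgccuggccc

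Mir21a lies inside an exon of Vmp1, in the untranslated part, 202 nt before the annotated 3′ end of that gene, which encodes a membrane protein needed for autophagy. An exon of the noncoding host gene Mir22hg contains Mir22, and an exon of Tlcd2 that is neither coding nor annotated as UTR overlaps it as well. Mir212 and Mir132 lie 203 nt apart, Mir212 upstream, in an intron of the noncoding gene 1700016P03Rik. This pair is 290 kb from Mir22. No other miRNA gene lies within 50 kb of any of the 4.

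The hairpins differ in base composition. Mir212 is the richest in G and C at 69.2%, above 96.9% of 1005 mouse hairpins, against 57.6% for Mir132, 55.8% for Mir22 and 45.7% for Mir21a. The median hairpin has 51.7%. Per nucleotide, the predicted fold of Mir132 was the strongest of the 4, at -0.564 kcal/mol, and that of Mir22 the weakest, at -0.441 kcal/mol. All 4 fold more strongly per nucleotide than the median hairpin, at -0.406 kcal/mol. Over the whole annotated hairpin, Mir132, the shortest at 66 nt, had instead the weakest fold of the 4, at -37.2 kcal/mol. Mir21a had the strongest, at -46.2 kcal/mol. The drawing of the hairpins gives the positions of the arms.

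**Figure D1:**
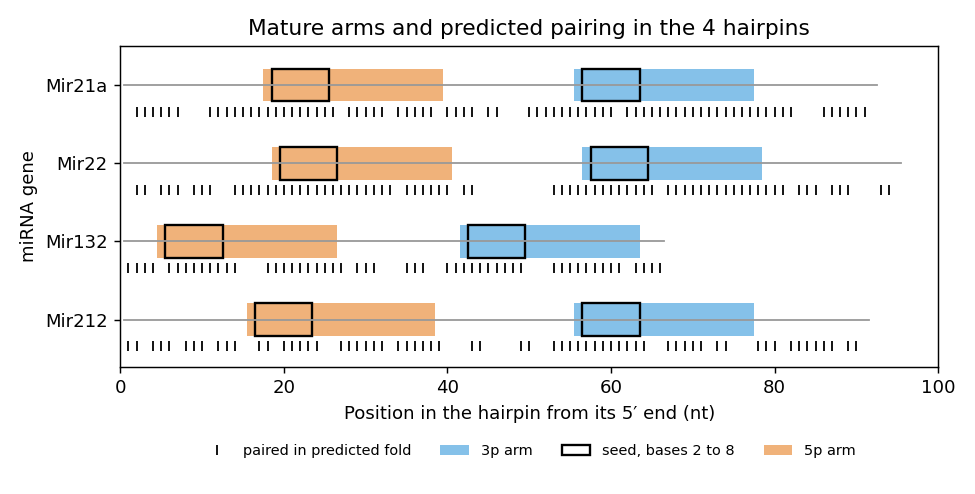
Mature arms, seeds and predicted pairing along the hairpins of Mir21a, Mir22, Mir132 and Mir212, from the 5′ end in nt. Coloured blocks are the annotated arms, boxes the seeds and ticks the bases paired in the minimum free energy fold; the Mir132 hairpin is the shortest at 66 nt.

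The seed can be followed into messages that these miRNAs are described to repress. The longest annotated 3′ UTR of 5 genes reported here was searched for the 7 letters complementary to the seed, on the messenger strand only. For miR-21a-5p (ATAAGCT), Spry1 and Pdcd4, a tumour suppressor that inhibits translation, had 1 match each. For miR-22-3p (GGCAGCT), Hdac4 and Sirt1 had 1 match each. For miR-132-3p and miR-212-3p (GACTGTT), Foxo3 had 2 matches. The first match in each is printed below as DNA letters, with the match in capitals.
Spry1: atgtaagtgcttaaATAAGCTat
Pdcd4: gtgtgggtgttctgATAAGCTac
Hdac4: tgcacgccaaactcGGCAGCTtt
Sirt1: tttccaaaacttgtGGCAGCTaa
Foxo3: cctaacccagcagaGACTGTTag

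These matches are a description of the letters and were not tested for function. Among UTRs at least as long, cut to the same length, 4.88% held the motif found in Spry1, 3.22% that in Pdcd4, 30.7% that in Hdac4, 15.3% that in Sirt1 and 29.3% that in Foxo3. The long UTRs of Hdac4 and Foxo3 would thus often hold such a match. Of all 21020 UTRs, 7.18% held the miR-21a-5p motif, 12.8% the miR-22-3p motif and 10.7% the motif of miR-132-3p and miR-212-3p.

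Replicate 1 had 5052766 reads, of which 2323450 were counted on the sense strand of miRNA genes, and replicate 2 had 7441784 reads and 3487183 sense counts. Levels are given as CPM, sense counts scaled to 1000000 per library. Multiple alignments took up 36.6% of the reads of replicate 1 and 37.1% of those of replicate 2. They are listed in a summary row apart from the genes, and how they were treated is not otherwise stated. The 4 hairpins share at most 15 nt with any other mouse hairpin in the RefSeq table, which is the stretch that Mir21a has in common with Mir21c. Copies elsewhere in the genome were not searched for. Intervals below are exact Clopper-Pearson 95% intervals; without molecular identifiers a read is not an independent molecule, so they express counting error alone.

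Among reads credited to a gene, Mir22 and Mir21a were among the most abundant miRNA genes of the newborn heart, while Mir132 and Mir212 were far lower. Genes with near-identical copies may be undercounted, since reads aligned to several places are listed apart from the genes. Levels and ranks below therefore hold among the credited reads only. Mir22 had 53406 sense counts in replicate 1 and 74374 in replicate 2, or 22986 and 21328 CPM. Mir21a had 44928 and 76114 sense counts, or 19337 and 21827 CPM. The order of the pair thus differed between the hearts, with Mir22 ahead in replicate 1 and Mir21a slightly ahead in replicate 2. In a bulk heart, fewer cells of a type and less of a miRNA per cell cannot be told apart. Together the 4 genes held 4.26% of all sense counts in replicate 1 and 4.33% in replicate 2. Mir132 and Mir212 together held 0.0229% and 0.0187% of all sense counts.

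Mir132 had 491 sense counts in replicate 1 and 605 in replicate 2, which is 211 and 173 CPM. The 95% interval ran from 193 to 231 CPM in replicate 1, and in replicate 2 from 160 to 188 CPM, so the intervals of the hearts did not overlap. Mir212 had 40 and 48 sense counts, or 17.2 and 13.8 CPM. Its intervals, 12.3 to 23.4 CPM for replicate 1 and 10.1 to 18.2 CPM for replicate 2, overlapped widely. Mir212 was far above the limit that a count of 0 allows, which is 1.29 CPM for replicate 1 and 0.860 CPM for replicate 2. On the opposite strand all 4 genes had 0 counts in both hearts, as did 93.7% of the 348 genes with at least 10 sense counts.

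**Figure D2:**
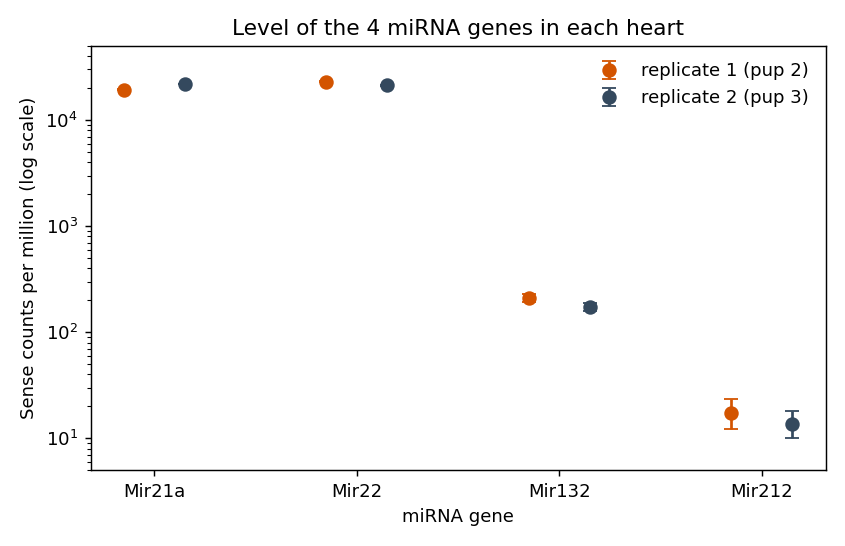
Sense CPM of Mir21a, Mir22, Mir132 and Mir212 in replicate 1 and replicate 2, on a log axis, with exact 95% intervals as bars. Mir21a and Mir22 sit between 19337 and 22986 CPM, Mir132 at 211 and 173 CPM and Mir212 at 17.2 and 13.8 CPM.

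By mean level Mir22 ranked 12 at 22157 ± 1172 CPM and Mir21a ranked 14 at 20582 ± 1761 CPM (SD, n = 2). The only gene between them was Mir23b, of the miR-23/27/24 clusters, at 21954 ± 1599 CPM. The ranges of these 3 genes over the hearts overlapped, so their order is not resolved. Above Mir22 stood Mirlet7i at 32255 ± 475 CPM and Mir23a at 26243 ± 1713 CPM, both with ranges that did not meet that of Mir22. Below Mir21a, Mir351 at 19425 ± 3301 CPM had an overlapping range, and Mir30a at 17677 ± 5.58 CPM did not.

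Mir132 ranked 131 at 192 ± 26.8 CPM, with 59.9% of the 327 genes that reached 2 CPM in both hearts below it. Its nearest genes were Mir421 at 198 ± 24.2 CPM, Mir187 at 196 ± 26.7 CPM, Mir341 at 191 ± 37.0 CPM and Mir101a at 184 ± 11.8 CPM. The range of Mir132 overlapped with all of theirs. Mir212 ranked 239 at 15.5 ± 2.44 CPM, with 26.9% of the 327 genes below it. Its range overlapped with those of Mir452, Mir205, Mir200a and Mir582, whose means lay between 14.8 and 15.9 CPM. Mir205 had 2.58 CPM in replicate 1 and 29.0 CPM in replicate 2, so its mean describes neither heart.

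**Figure D3:**
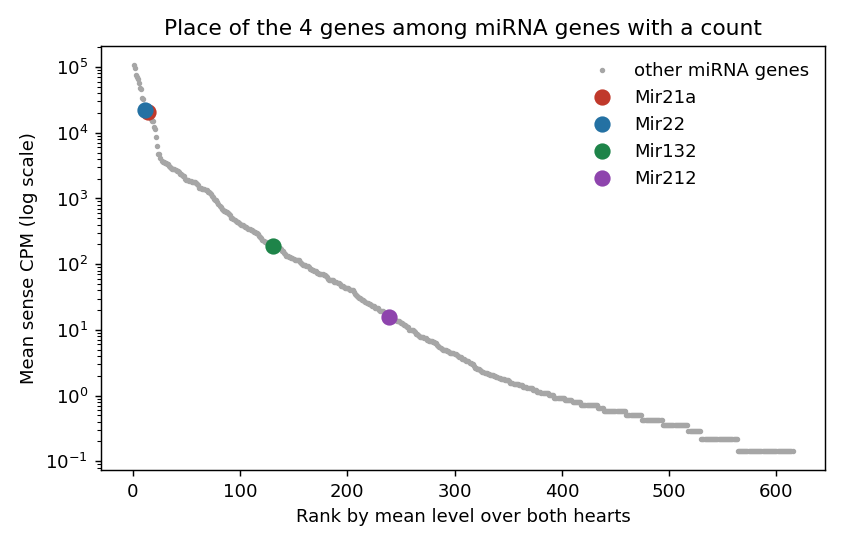
Mean sense CPM over both hearts (log axis) against rank for every miRNA gene with a count, with the 4 genes coloured. Mir22 and Mir21a lie at ranks 12 and 14 on the steep left part of the curve, Mir132 at rank 131 and Mir212 at rank 239.

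Within each heart, ratios between the genes do not depend on the scaling of the library. They are ratios of reads, and how the reads of each miRNA relate to its molecules was not measured. A read is taken to hold 1 mature arm of 22 or 23 nt, which was not examined in the reads. On that assumption counts are compared as such, and the value per annotated hairpin length is given where it differs. The sense count of Mir22 over that of Mir21a was 1.19-fold in replicate 1 (95% interval 1.17 to 1.20) and 0.977-fold in replicate 2 (0.967 to 0.987). The log2 ratio averaged 0.11 ± 0.200 (SD, n = 2), so it was smaller than its spread between hearts, although counting error in each heart was far smaller than either. Per annotated length the mean log2 ratio was 0.06.

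The cluster partners differed widely in reads. Mir132 exceeded Mir212 by 12.3-fold in replicate 1 (95% interval 8.88 to 17.4) and by 12.6-fold in replicate 2 (9.39 to 17.3), in sense counts. The log2 ratio was 3.64 ± 0.0270 (SD, n = 2), and 4.10, or 17.2-fold, per annotated length, since the Mir132 hairpin is shorter. This SD lies well within the counting intervals, which 40 and 48 counts of Mir212 make wide, so it does not measure how steady the ratio is.

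Mir21a exceeded Mir132 91.5-fold in replicate 1 and 126-fold in replicate 2 in sense counts, a log2 ratio of 6.75 ± 0.325 (SD, n = 2). Mir22 exceeded Mir132 109-fold and 123-fold, a log2 ratio of 6.85 ± 0.125. Of the 4 ratios, Mir21a over Mir132 had the largest SD. Per annotated length these mean log2 ratios were 6.27 and 6.33. The ratios are given without a test, since the exact two-sided sign flip, the test used for so few values, cannot go below p = 0.5 with 2 hearts.

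Between the libraries, Mir21a was lower in replicate 1 and both Mir22 and Mir132 were higher there, each by less than 1.5-fold. The exact two-sided binomial test, with TMM-scaled library sizes and Benjamini-Hochberg adjustment over 348 miRNA genes with at least 10 counts, compares these 2 libraries and not conditions. It called 3 of the 4 genes, against a background of 27.6% of all genes tested. Calls were more frequent at higher levels: they took in 42% of the 193 genes whose mean reached 50 CPM and 81% of the 21 whose mean reached 10000 CPM. A call of Mir21a and Mir22 is therefore what most genes of that level received.

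The log2 ratio of replicate 1 over replicate 2 was -0.16 for Mir21a (95% interval -0.17 to -0.14, adjusted p = 2.25e-74, exact binomial test). It was 0.13 for Mir22 (0.11 to 0.14, adjusted p = 4.73e-51, exact binomial test). For Mir132 it was 0.30 (0.13 to 0.48, adjusted p = 0.00290, exact binomial test), or 1.23-fold higher in replicate 1. Mir212 had a log2 ratio of 0.34, close to that of its cluster partner, but did not pass (-0.30 to 0.98, adjusted p = 0.536, exact binomial test). At 40 and 48 counts a difference of the size seen in Mir132 was not detectable.

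The differences were also set beside those of other genes. The median absolute log2 ratio was 0.11 over the 193 genes at 50 CPM or above, and 96.9% of them lay within 1.5-fold. Of these genes 62.7% had a smaller absolute log2 ratio than Mir21a, 53.9% a smaller one than Mir22 and 89.1% a smaller one than Mir132. Mir212, whose mean is under 50 CPM, is not in this set. Spread depends on level, and among the 20 genes nearest to each in mean level, a larger absolute log2 ratio was seen in 4 for Mir21a, 6 for Mir22, 6 for Mir132 and 14 for Mir212. The median log2 ratio of the 4 genes was 0.21, beside -0.03 over all genes tested.

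**Figure D4:**
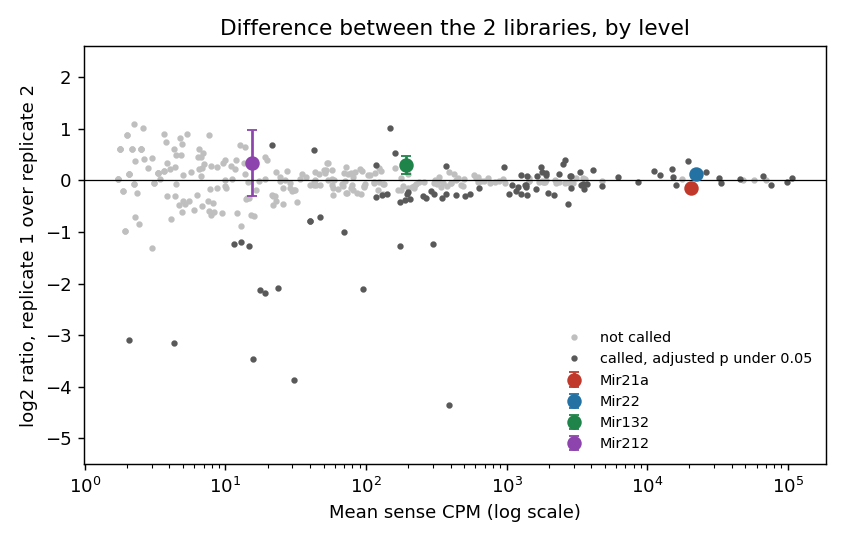
Log2 ratio of replicate 1 over replicate 2 against mean sense CPM (log axis) for the tested miRNA genes, dark where called, with the 4 genes coloured and their 95% counting intervals as bars. Mir21a lies below 0 and Mir22 and Mir132 above it, while the bar of Mir212 crosses 0.

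Other miRNAs with described roles in cardiac hypertrophy, fibrosis or remodelling put the 4 levels in context. Of 44 names on that list 40 had a row, and the other 4 (Mir1a-2, Mir24-1, Mir378a and Mir9-1) were not analysed here. By mean sense CPM, 3 members stood above Mir22: Mir208b, hosted by a myosin gene, at 69793 ± 490 CPM, Mir26b at 33434 ± 1161 CPM and Mir23a. Mir23b lay near Mir21a. Mir30a and the myosin-hosted Mir208a (14939 ± 1397 CPM) lay below Mir21a, with ranges that did not meet that of Mir21a. Mir499, another myosin-hosted miRNA, had 4790 ± 75.7 CPM and Mir98, a let-7 relative, 3113 ± 27.5 CPM. Mir132 was lower than 18 members and Mir212 lower than 29.

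The test between the libraries called 8 of 37 tested list members, 4 higher and 4 lower in replicate 1, or 21.6% beside the 27.6% of all genes. With total counts as the scale the split was 4 higher and 7 lower, and with DESeq2 size factors 8 higher and 3 lower, so the direction of the list depends on the scaling. Its median log2 ratio was 0.00 and that of all genes -0.03. Called higher were Mir23a (log2 ratio 0.15), Mir23b (0.17), Mir208a (0.21) and Mir15b (0.11). Called lower were Mir26b (-0.05), Mir101b (-0.13), Mir195a (-0.10) and Mir29a, an antifibrotic miRNA (-0.35). Mir15b, Mir101b, Mir195a and Mir29a were named because they were called. Mir23a, Mir23b, Mir26b and other list members with near-identical relatives may be undercounted, since reads aligned to several places are listed apart from the genes.

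**Figure D5:**
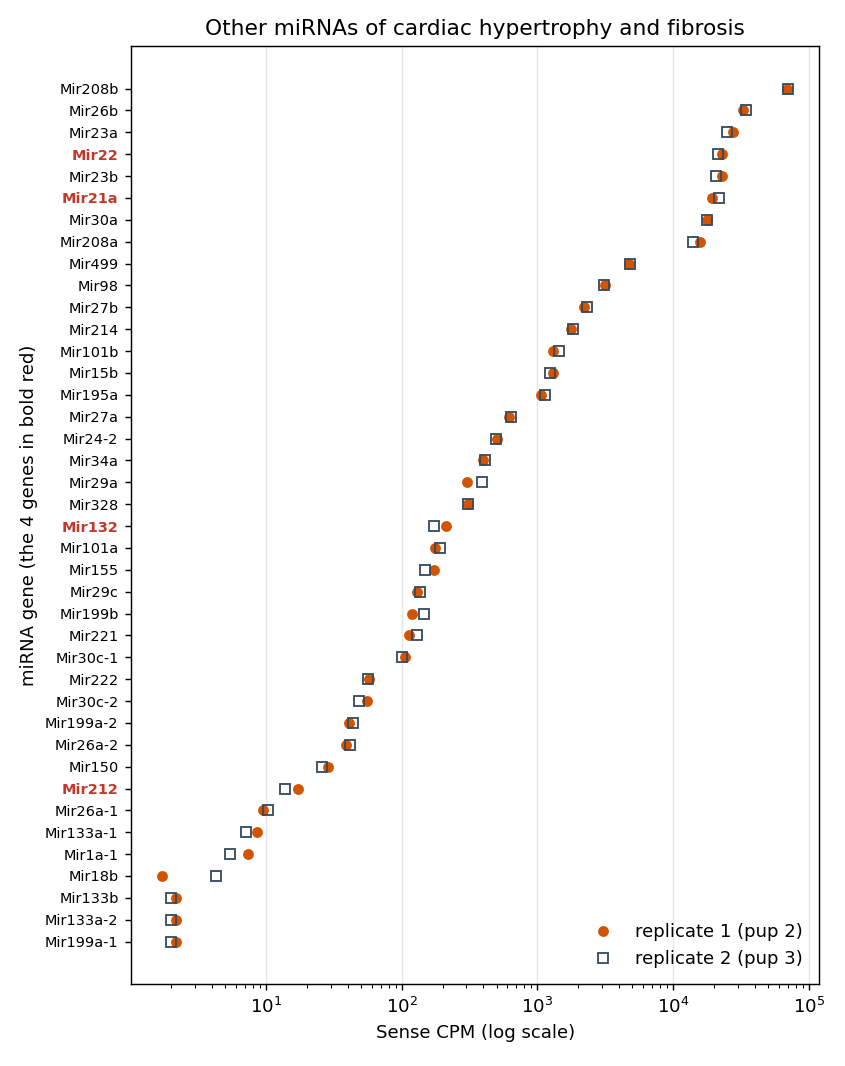
Sense CPM (log axis) in replicate 1 and replicate 2 of the 36 list members whose mean reached 2 CPM and of the 4 genes, ordered by mean. Mir22 and Mir21a stand among the top entries, beside Mir23a, Mir23b and Mir30a, Mir132 in the middle and Mir212 in the lower part.

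Markers of the cells in the heart were present in both libraries. The cardiomyocyte list (5 of 5 with counts) summed to 9.01% of sense counts in replicate 1 and 8.89% in replicate 2, endothelial Mir126a to 10.8% and 10.6%, smooth muscle Mir143 and Mir145a to 9.83% and 10.2%, and the fibroblast list to 0.193% and 0.203%. In the cardiomyocyte list Mir1a-1 had 17 and 19 counts and Mir133a-1 had 20 and 25. These genes, and Mir199a-1 and Mir199a-2 of the fibroblast list, have near-identical copies, so their reads may have been dropped. The summed shares therefore do not compare cell types with each other. Markers of blood and of other tissues were low. In replicate 1 and replicate 2 the erythroid list summed to 627 and 542 CPM and the leukocyte list, without a row for Mir142, to 363 and 348 CPM. Liver Mir122 had 53.8 and 47.3 CPM. The epithelial and neuronal lists differed more between the hearts. The epithelial list (7 of 7 with counts) reached 240 CPM in replicate 1, against 1316 CPM in replicate 2. Of these sums Mir449a alone held 35.7 CPM in replicate 1 and 742 CPM in replicate 2. The neuronal list rested on 1 gene, Mir137, with 21 and 135 counts or 9.04 and 38.7 CPM, and had Mir124a-1, Mir124a-2, Mir124a-3, Mir9-2 and Mir9-3 at 0 counts in both hearts, genes with near-identical copies whose reads may have been dropped. The part of these lists in the differences of the 4 genes was not tested.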

How the data were processed

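Per the labels, total RNA with inserts under 30 nt was sequenced and reads were placed on mm10. The counts deposited by the authors are raw numbers per miRNA gene, in columns for both strands, sense and opposite; their description files name annotation M4. Aligner, counter and multiple-alignment settings are not given in the sources used here. The 4 summary rows, 54.0% of reads in replicate 1 and 53.1% in replicate 2, stayed out of library sizes and tests.

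Genes were matched by Ensembl ID to GENCODE M21 on GRCm38, the assembly of mm10; 1894 of 1973 IDs matched and the 79 others had no count. Hairpins were folded with RNAfold 2.7.2. TMM factors came from edgeR 4.0.16 and size factors from DESeq2 1.42.0, in R 4.3.3. Exact tests used SciPy 1.17.1 with a threshold of 0.05 on the adjusted p. They were tested on simulated data with counting error alone, the spread that the binomial test assumes. Those data cannot show how the test behaves when hearts differ beyond counting error. A contrast of one heart with the other leaves a quasi-likelihood fit no residual degrees of freedom.

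The 4 genes, the list and the tests were chosen with earlier results of these data known, and the 5 genes whose seed matches are reported from general knowledge after the counts were seen; other genes searched are not reported here, so these 5 give no rate of matches among targets. Named beside the 4 genes are their 2 neighbours in level on each side, miRNAs with a shared seed or within 50 kb, the 8 most abundant list members, relatives of Mir21a and called list members. Alternatives covered strand, scaling, denominator, low-count filter, pseudocount, hairpin length and leaving out each heart.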

Additional observations from a re-analysis of the deposited data

How the results depend on the processing

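Of 44 comparisons of a value with its main value, 35 left it within 1 SD, on the same side of the threshold or, for counts of genes, within 1.5-fold, and 9 moved it. Not counted are 16 that leave out a heart, which with 2 hearts always fall within 1 SD of the mean, and 4 within-heart ratios over both strands, which cannot change because the opposite strand had 0 counts. Among those counted, scaling to all reads must lower every level, and hairpin length shifts each ratio by a set amount. The tally therefore does not measure how robust the results are. Scaled to all reads of a library, summary rows included, the mean levels were 9560 for Mir21a, 10282 for Mir22, 89.2 for Mir132 and 7.18 for Mir212, because the denominator is larger. With both strands counted Mir22 averaged 20686 CPM, since its own count is unchanged and the total grows. Per annotated length the mean log2 ratio was 4.10 for Mir132 over Mir212, 6.27 for Mir21a over Mir132 and 6.33 for Mir22 over Mir132; with a pseudocount of 1 CPM Mir132 over Mir212 was 3.55. Leaving out each heart gave Mir22 over Mir21a values of -0.03 and 0.25, so its sign rests on which heart is used.

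Between the libraries, other scalings, no filter and both strands gave log2 ratios of -0.17 to -0.13 for Mir21a, 0.11 to 0.15 for Mir22, 0.28 to 0.33 for Mir132 and 0.32 to 0.37 for Mir212. The adjusted p by the exact binomial test was at most 0.00572 for Mir132 and at least 0.492 for Mir212. The count of called genes ran from 86 of 615 tested without the filter to 104 of 358 over both strands, against 96 of 348. The called share was thus lower without the filter. Mir212 is limited by its 40 and 48 counts, and no comparison of the libraries was possible without either. No paired analysis was possible because the series has 1 group.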
